A study of Saccharomyces cerevisiae with 83 samples.

Results

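The yeast genes described here are those whose standard name is PRP, LSM, SMD or SNU followed by a number, together with CUS1 and BUD31. They encode proteins of the spliceosome and the Lsm proteins. Of 43 genes that meet this rule in the reference gene table, 39 had a row in the count tables of a barcoded plasmid library, as 40 of its 4871 gene entries, because LSM7 (YNL147W) has 2 entries. PRP2, PRP4, PRP8 and PRP31 were not analysed here. PRP5 had a row but 0 counts in every library, so 39 entries could be followed.

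The library holds barcoded centromeric plasmids, each adding a copy of 1 gene to a haploid strain of Saccharomyces cerevisiae in the YPS1009 background. Cells were grown in competition from frozen stock at 30 °C in medium lacking histidine. Nourseothricin at 100 mg/L served to keep the amplified chromosomes and G418 at 200 mg/L to keep the plasmids. Barcodes were sequenced at generation 0 and after 5 or 10 generations. The study sets euploid strains beside aneuploid ones in which chromosome XV, XII, VII or IV is duplicated, in the presence or absence of SSD1, an RNA-binding protein gene. Which number is which karyotype, and which strains lack SSD1, is not given by the labels, so each strain is named here by its number. Of the 43 genes, 8 lie on chromosome IV, 6 on VII, 4 on XII and 1 on XV in the R64 gene table, and none of these can be matched here to a strain that carries it in extra copy. Batch 1 held AGY1611, AGY1612, AGY1613 and AGY1614 at generations 0 and 10, with 4 replicates (A to D) from 2 transformations. Batch 2 held AGY1611, AGY1613 and AGY1860 at generations 0, 5 and 10, AGY1863, AGY1862 and AGY1859 at the first and last of these, and AGY1861 at the first and the second, with 3 replicates from 3 transformations.

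The spliceosome removes introns from pre-mRNA in a cycle of assembly, catalysis and release. Sm proteins form a ring on the U1, U2, U4 and U5 small nuclear RNAs (snRNAs), and a ring of Lsm proteins binds the end of U6, while a second Lsm ring in the cytoplasm acts in mRNA decay. The U1 and U2 particles recognise the ends of an intron, the tri-snRNP brings in U4, U6 and U5, the Prp19 complex stabilises the active form, and RNA helicases drive each rearrangement and the final disassembly. Few genes of budding yeast have an intron, but ribosomal protein genes are prominent among them, and most spliceosome proteins are essential.

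All 83 libraries (32 of batch 1 and 51 of batch 2) gave between 452054 and 8351355 counts in all. The members together held 0.807% to 1.81% of the counts of a library. In what follows, CPM is a count scaled to a common library total, a log2 change is the change of a barcode against the rest of the plasmid pool, and an entry is said to have risen or fallen where the Benjamini-Hochberg adjusted p of edgeR's quasi-likelihood test was under 0.05 over all entries tested. The tests covered 39 member entries of 4615 in batch 1 and 38 of 4579 in batch 2. SMD2 dropped out of the tests in batch 2, where it had at most 7 counts in a library at generation 0 against 955 to 2369 in batch 1. PRP11 had 3 to 20 counts per library at generation 0 of batch 2 against 979 to 2583 in batch 1, so its batch 2 values are weak. LSM2, PRP24 and PRP42 had medians of 2.75 to 12.9 CPM at generation 0 of both batches, and their later values scattered by the cultures described below. PRP42 scattered at the start too, from 0 to 83.3 CPM at generation 0 of batch 1 and from 0 to 63.9 in batch 2.

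With the 4 cultures of a strain taken as separate, more spliceosome and Lsm plasmids rose than fell over 10 generations in each batch 1 strain. With summed cultures, described below, this did not hold in AGY1611, AGY1612 or AGY1613. In AGY1611, 22 of 39 entries were called (7 lower, 15 higher), where 47.8% of all entries were called (23.8% lower, 24.0% higher). In AGY1612 the count was 19 (6 lower, 13 higher), against 43.1% of all entries (25.9% lower, 17.1% higher). AGY1613 had 16 (7 lower, 9 higher), against 40.8% (21.3% lower, 19.5% higher), and AGY1614 had 27 (9 lower, 18 higher), against 53.1% (28.3% lower, 24.8% higher). The count of called entries was thus near the background in AGY1612 and AGY1613, and the number that fell was under the background share in all 4 strains. The split depends on the scaling: with library size alone in place of TMM it was 8 lower and 8 higher in AGY1611, 6 and 13 in AGY1612, 8 and 3 in AGY1613, and 13 and 8 in AGY1614. That scaling moved the median change of all entries in AGY1614 by -0.52.

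The members' median log2 change lay above that of all entries in each of the 4 strains. It was 0.44 in AGY1611 against 0.09 for all entries, 0.24 in AGY1612 against 0.03, 0.30 in AGY1613 against 0.06, and 0.37 in AGY1614 against 0.03. With library size alone the members' median in AGY1614 turned to -0.19, with all entries at -0.49. A list of 52 other splicing and Lsm-associated genes had 22, 23, 20 and 19 called entries in AGY1611, AGY1612, AGY1613 and AGY1614, of which 34 over the 4 strains were higher and 50 lower, with medians from -0.05 to 0.11. The members were also more abundant than the pool at the start, with a median of 237 CPM at generation 0 of batch 1 against 185 for all entries, and across the 39 entries the level at generation 0 and the mean change had a Spearman correlation of 0.43 (0.28 across all entries). Points of that correlation share libraries, and its part in the members' median was not tested.

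The 4 cultures of a batch 1 strain fell into pairs, described here without a test. In AGY1611 the changes of cultures A and B did not overlap those of C and D for 29 of 39 members (79.2% of all entries), and the counts were 32 in AGY1612 (75.2%), 31 in AGY1613 (78.3%) and 28 in AGY1614 (69.1%). A and B moved in one direction and C and D in the other for 9, 5, 9 and 8 members in these strains (28.6%, 17.6%, 26.7% and 19.1% of all entries). The labels give 2 transformations without saying which culture came from which, and A was set with B and C with D because their changes correlated in an earlier analysis of these data, so the counts rest on the same changes that chose the pairs. The empty vector, left out of the tests, held 631 and 1135 counts in A and B of AGY1611 at generation 0, against 247 and 128 in C and D. These were 866 and 969 against 82 and 353 in AGY1612, and 1099 and 1218 against 243 and 286 in AGY1613. AGY1614 had 857 and 928 against 74 and 1555. With A added to B and C added to D, 4, 7, 3 and 14 members were called in AGY1611, AGY1612, AGY1613 and AGY1614, all of them among those called with 4 cultures, where 12.7%, 17.1%, 9.69% and 26.6% of all entries were called. In AGY1611 the calls kept were PRP43, PRP46 and SNU66 as lower and SNU13 as higher. In AGY1612 they were LSM7 entry 2, PRP18, PRP43, PRP46 and SMD3 as lower, and PRP9 and PRP39 as higher. In AGY1613 they were PRP18, PRP43 and PRP46, all lower. In AGY1614 they were LSM3, LSM7 entry 2, PRP18, PRP21, PRP43 and PRP46 as lower. LSM4, LSM5, PRP6, PRP11, PRP22, PRP28, SNU56 and SNU71 were kept there as higher. Every other batch 1 call at generation 10 given below was lost with summed cultures.

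In batch 2, fewer entries were called. AGY1611 had 7 of 38 (2 lower, 5 higher), against 18.9% of all entries (11.3% lower, 7.62% higher), and AGY1613 had 3 (all higher), against 11.4% (7.01% lower, 4.35% higher). The largest count was 10 in AGY1859 (3 lower, 7 higher), against 14.5% (9.35% lower, 5.18% higher). In AGY1860 it was 7 (5 lower, 2 higher), against 21.0% (14.7% lower, 6.25% higher), and 11 with the replicate number as a block, which pairs the samples there. AGY1862 had 5 (3 lower, 2 higher), against 18.2% (11.5% lower, 6.7% higher), and AGY1863 had 4 (2 lower, 2 higher), against 17.5% (13.5% lower, 4.04% higher). With library size alone in place of TMM the lower and higher counts were 2 and 3 in AGY1611, 1 and 1 in AGY1613, 3 and 2 in AGY1859, 5 and 1 in AGY1860, and 3 and 1 in AGY1863. The AGY1859 count came to 2 when only the libraries of that strain were fitted. Medians over the members were 0.16 to 0.36 in the 6 strains, against 0.01 to 0.04 for all entries, and the other splicing genes had 5 to 8 calls of 49 per strain (33 lower and 8 higher over the 6 strains).

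**Figure D1:**
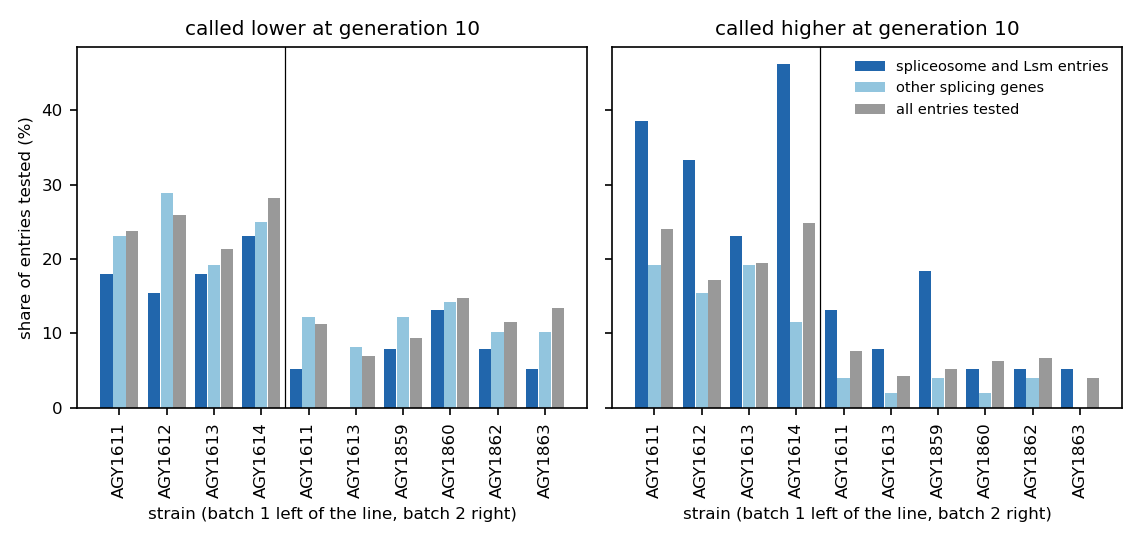
Share of tested entries called lower (left) and higher (right) at generation 10, in percent, for the spliceosome and Lsm entries, the other splicing genes and all entries, by strain. In AGY1614 of batch 1, 18 of 39 spliceosome and Lsm entries were called higher, where 24.8% of all entries were.

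**Figure D2:**
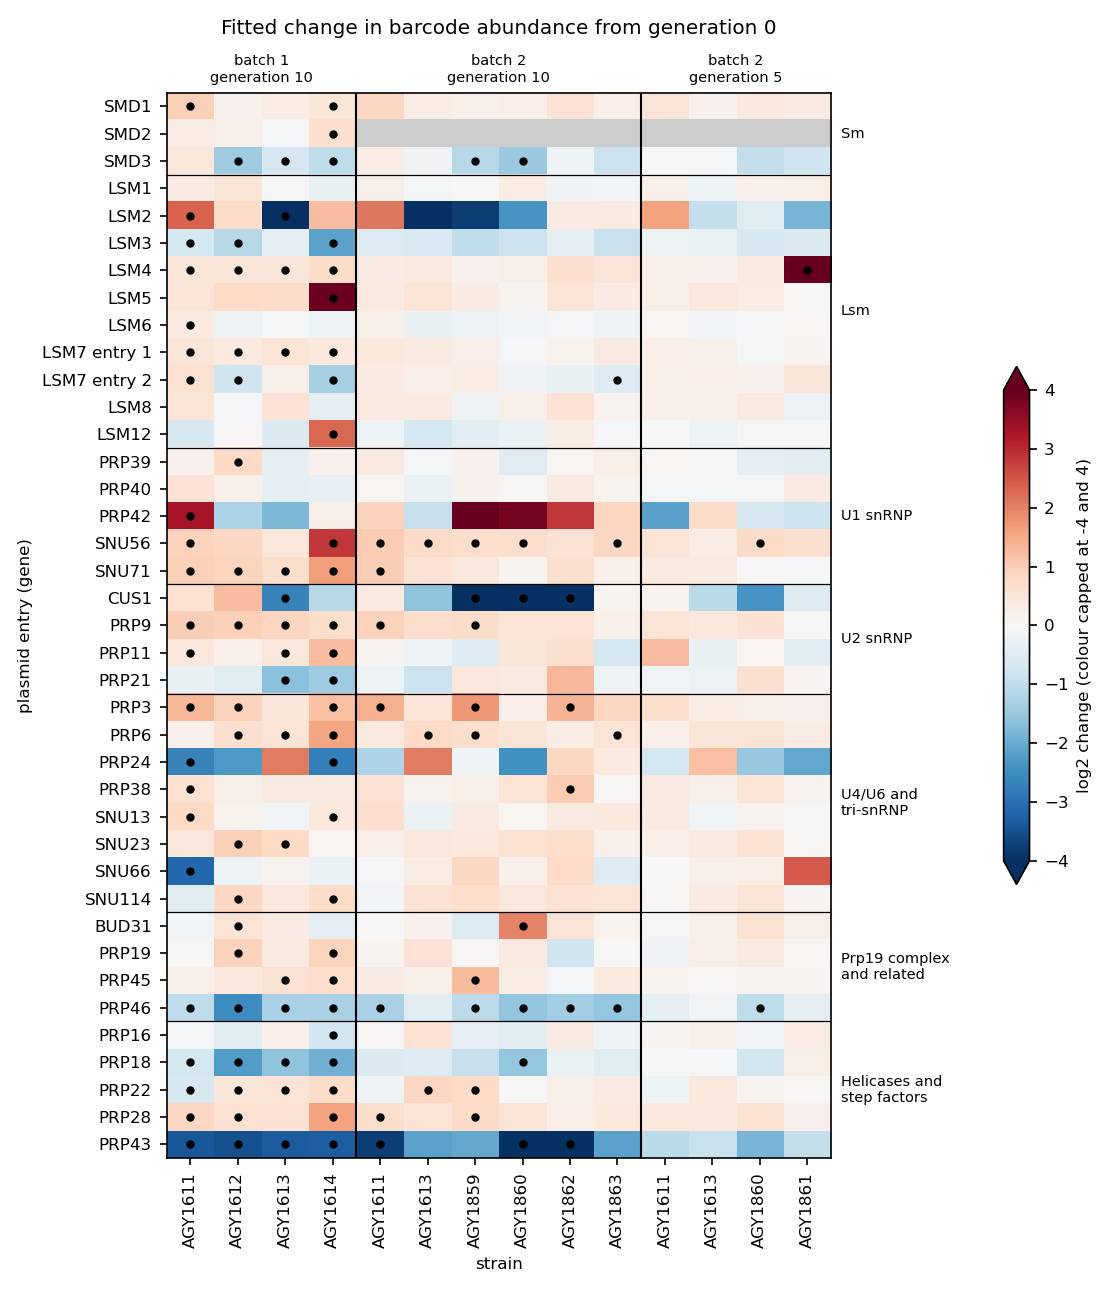
Fitted log2 change from generation 0 for each member entry (rows, grouped by role) in each strain (columns), with colour capped at -4 and 4. A dot marks an adjusted p under 0.05, and grey marks SMD2 in batch 2, which was not tested. PRP46, PRP43 and LSM3 are the rows with a change below 0 in every column.

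Among the Sm proteins, SMD3 (YLR147C) fell in 5 of 10 comparisons and SMD1 in 0. SMD3 encodes SmD3, which sits in the Sm ring of the snRNAs. At generation 0 of batch 1 its barcode lay between 142 and 164 CPM with a median of 155. After 10 generations the 4 libraries of AGY1612 held 42.3, 48.7, 65.7 and 74.1 CPM, those of AGY1613 97.4, 80.6, 106 and 108, and those of AGY1614 91.3, 104, 53.3 and 44.7. All 12 lay below the lowest generation 0 library of their strain, whereas AGY1611 went the other way, to 226, 238, 181 and 171 CPM, above all of its generation 0 libraries.

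The log2 change of SMD3 was -1.41 ± 0.20 (SE, n = 4 against 4) in AGY1612 (edgeR adjusted p = 1.07e-06), -0.69 ± 0.20 in AGY1613 (edgeR adjusted p = 0.00614), and -1.03 ± 0.20 in AGY1614 (edgeR adjusted p = 0.000102). In AGY1611 it was 0.45, which did not pass the test. With summed cultures AGY1612 kept its call (edgeR adjusted p = 0.0225), while AGY1613 (0.275) and AGY1614 (0.0692) lost theirs. In batch 2, SMD3 fell in AGY1860 to 59.8, 56.8 and 43 CPM (log2 change -1.49 ± 0.32, n = 3 against 3, edgeR adjusted p = 0.000473), and in AGY1859 to 36.6, 79.4 and 96.5 CPM (-1.11 ± 0.32, edgeR adjusted p = 0.0118). The AGY1859 call was lost without the generation 10 library of replicate 1 (0.0965).

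SMD1 and SMD2, which encode the other D proteins of the ring, rose where they passed the test. SMD1 rose in AGY1611 of batch 1 by a log2 value of 0.95 (edgeR adjusted p = 0.000125), with cultures A and B at 1157 and 1052 CPM against 487 and 477 for C and D, from 395 to 426 CPM at the start. It also rose in AGY1614 (0.48, edgeR adjusted p = 0.0319), and both calls were lost with summed cultures. SMD2 rose in AGY1614 of batch 1 alone among the 4 tests it had (0.68, edgeR adjusted p = 0.0185), where its generation 0 and 10 libraries overlapped and the call was lost with summed cultures.

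Among the Lsm proteins LSM4 rose and LSM3 fell in AGY1614 of batch 1. Over the 4 strains of batch 1 the 10 Lsm entries gave 19 calls, 13 higher and 6 lower. That is 47.5% of their 40 tests, close to the 46.2% over all entries (24.8% lower, 21.4% higher). Over the 6 strains of batch 2 they gave 1 call, lower, in 60 tests (1.67%), where 16.9% of tests over all entries were called (11.2% lower, 5.69% higher). LSM1, which is in the cytoplasmic ring only, and LSM8, which is in the nuclear ring only, were called in no strain. Their log2 changes in batch 1 were -0.29 to 0.52 and -0.37 to 0.58. Cultures A and B went against C and D for LSM1 in AGY1611, AGY1613 and AGY1614. The same held for LSM8 in AGY1611 and AGY1612, but not in the other strains. In AGY1611, LSM8 changed by 1.14 to 1.29 in A and B and by -0.85 to -0.83 in C and D. LSM3 changed downwards in all 10 generation 10 comparisons (log2 -2.14 to -0.36) and fell in 3 of them, AGY1611, AGY1612 and AGY1614 of batch 1, of which AGY1614 alone kept the call with summed cultures. In AGY1614 it went from 137, 138, 134 and 172 CPM to 24.7, 17.8, 32.2 and 65.8. LSM6, a subunit of both rings, rose in AGY1611 of batch 1 (0.39, edgeR adjusted p = 0.0155, lost with summed cultures) and passed the test in no other comparison.

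LSM4 (YER112W), a subunit of both Lsm rings, moved the other way and was higher in all 10 comparisons (0.18 to 0.75), with calls in the 4 strains of batch 1. The 4 generation 10 libraries of AGY1614 held 567, 655, 456 and 437 CPM, above its 322, 335, 313 and 294 at the start (log2 change 0.75 ± 0.17, n = 4 against 4, edgeR adjusted p = 0.00053). In AGY1613, C and D rose to 626 and 556 CPM, but A and B, at 276 and 316, lay within or below the generation 0 range. That call was lost without the generation 10 library of C or of D, without the generation 0 library of A, with the replicate block, with the strain's own libraries alone, with library size alone and with summed cultures, with adjusted p up to 0.279. Of the other 3 calls, that in AGY1614 was lost with library size alone (0.318), while AGY1611 (0.232) and AGY1612 (0.271) lost theirs with summed cultures. The AGY1611 call was also lost with DESeq2 size factors and with library size alone (edgeR adjusted p up to 0.235). The AGY1612 call was also lost without the generation 0 library of C (0.0597).

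At generation 5 in AGY1861, LSM4 had the largest of the 38 member changes. Its barcode went from 295, 317 and 302 CPM to 7465, 7622 and 3533, so all 3 libraries lay far above the start (log2 change 4.35 ± 0.28, n = 3 against 3, edgeR adjusted p = 1.18e-17). The call was kept under each alternative and each left-out library. This strain has no generation 10 library here. Elsewhere in batch 2, LSM4 at generation 5 lay between 283 and 550 CPM.

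LSM5 and LSM12 had their largest changes in AGY1614, each in cultures C and D. LSM5 stood at 272, 253, 277 and 314 CPM at generation 0 and at 555, 489, 7180 and 8799 at generation 10. All 4 libraries lay above the start, with C and D far above A and B (log2 change 3.93 ± 0.55, n = 4 against 4, edgeR adjusted p = 7.36e-07). LSM12, whose protein resembles Lsm proteins but belongs to neither ring, went from 164, 159, 168 and 161 CPM to 160, 120, 1626 and 1276, so A and B did not exceed the start (2.28 ± 0.59, edgeR adjusted p = 0.00169, lost with summed cultures).

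LSM7, a subunit of both Lsm rings, was present as 2 entries, and these did not behave alike. What sets the entries apart is not given in the sources used here. Entry 1 rose in all 4 strains of batch 1, by log2 values of 0.38 to 0.53. Entry 2 rose in AGY1611 (0.60 ± 0.13, edgeR adjusted p = 0.000362), had a change of 0.22 that did not pass the test in AGY1613, and fell in AGY1612 (-0.79 ± 0.13, edgeR adjusted p = 1.13e-05) and AGY1614 (-1.33 ± 0.14, edgeR adjusted p = 4.02e-09), with n = 4 against 4 in each.

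Within each entry, the generation 10 libraries of AGY1614 and AGY1612 did not overlap those of generation 0. The 2 entries already lay apart at generation 0 of batch 1, with entry 1 at 504 to 549 CPM and entry 2 at 344 to 456. In AGY1614, entry 1 went from 506, 532, 522 and 525 CPM to 717, 726, 583 and 776, while entry 2 went from 375, 377, 382 and 456 to 181, 139, 122 and 200. In AGY1612, entry 1 reached 607, 619, 728 and 711 CPM and entry 2 fell to 267, 250, 179 and 176 from 368, 372, 396 and 369. The change of entry 1 exceeded that of entry 2 in 4 of 4 cultures of both strains, by 0.68 to 1.66 in AGY1612 and by 1.55 to 1.87 in AGY1614 on the log2 scale. In AGY1611 it exceeded it in 1 of 4 cultures.

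With summed cultures, entry 2 kept its calls in AGY1612 (edgeR adjusted p = 0.0249) and AGY1614 (0.000642), whereas entry 2 in AGY1611 (0.0618) and entry 1 in all 4 strains (0.122 to 0.24) lost theirs. With library size alone entry 1 turned to -0.091 in AGY1614 (edgeR adjusted p = 0.536). In batch 2, entry 2 fell in AGY1863, from 393 CPM or more in each library to 236, 288 and 320 (log2 change -0.52 ± 0.19, n = 3 against 3, edgeR adjusted p = 0.0451), a call lost in 5 of 6 fits without a library (adjusted p up to 0.206). Entry 1, with a change of 0.34 there, was called in no batch 2 strain, and its change exceeded that of entry 2 in 3 of 3 cultures of AGY1863, by 0.44 or more.

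**Figure D3:**
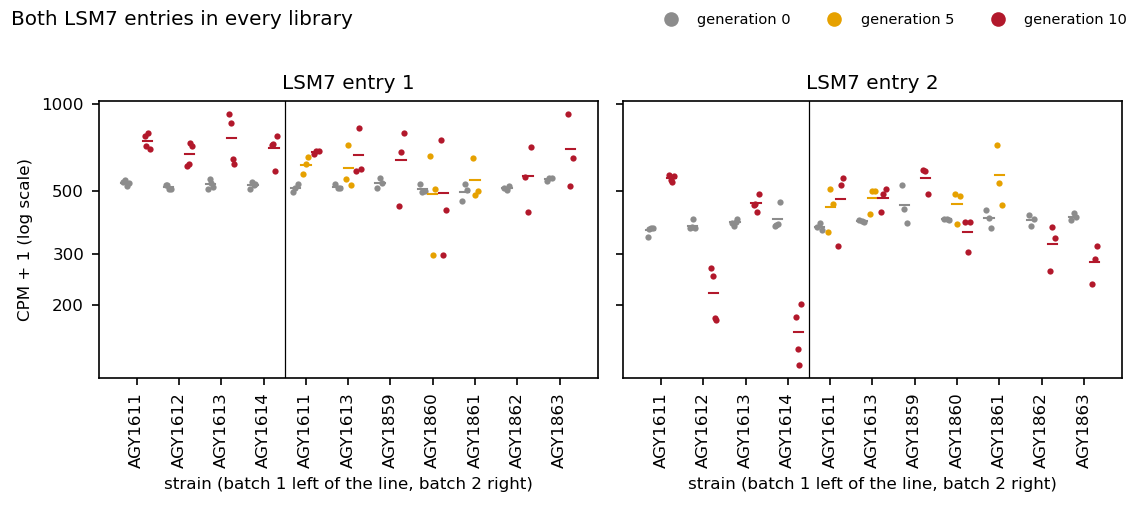
CPM plus 1 (log axis) of both LSM7 entries in every library, by strain and generation, with a bar at the mean of each group. Entry 1 lies at 583 to 776 CPM in AGY1614 of batch 1 at generation 10, where entry 2 lies at 122 to 200. At generation 0 of batch 1 they already lie apart, at 504 to 549 and 344 to 456 CPM.

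No U1 snRNP protein gene fell in any strain. These proteins hold the U1 snRNA at the start of an intron. Their 5 entries gave 8 calls over the 4 strains of batch 1 and 6 over the 6 strains of batch 2, all higher. These are 40.0% of 20 tests and 20.0% of 30, and in either direction 46.2% and 16.9% of the tests over all entries were called, so the number of calls lay near the background. By direction, 21.4% and 5.69% of the tests over all entries were called higher, and 24.8% and 11.2% lower. SNU56 (YDR240C) made 2 of the 8 higher calls in batch 1 and 5 of the 6 in batch 2. Its change was above 0 in all 34 cultures that reached generation 10. It began at 344 to 468 CPM in batch 2, with a median of 374.

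After 10 generations SNU56 stood at 604, 789 and 825 CPM in AGY1611 of batch 2, all above the start at 362, 369 and 366 (log2 change 1.01 ± 0.23, n = 3 against 3, edgeR adjusted p = 0.00118). It also rose in AGY1613 (0.76), AGY1859 (0.69), AGY1860 (0.71) and AGY1863 (0.84). Those 4 calls were less firm. Each was lost without at least 1 library, with adjusted p up to 0.116 in AGY1613, 0.385 in AGY1859, 0.0901 in AGY1860 and 0.183 in AGY1863. At generation 5 of AGY1860, SNU56 rose to 492, 692 and 752 CPM from 372, 396 and 381 (0.75 ± 0.23, edgeR adjusted p = 0.0327), and 5 of 6 fits without a library lost the call (adjusted p up to 0.126).

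The largest rise of SNU56 was in AGY1614, where A and B reached 3785 and 5923 CPM and C and D 706 and 731, from 382 to 412 at generation 0. All 4 cultures rose (log2 change 2.82 ± 0.38, n = 4 against 4, edgeR adjusted p = 5.01e-07), and the call was kept with summed cultures (edgeR adjusted p = 0.00447). In AGY1611 of batch 1 the change was 0.91 (edgeR adjusted p = 0.0386), lost with summed cultures (0.295) and in 6 of 8 fits without a library.

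SNU71, another U1 protein, rose in the 4 strains of batch 1 (0.69 to 1.69), with the call kept in AGY1614 alone when cultures were summed, and in AGY1611 of batch 2 (0.97 ± 0.31, n = 3 against 3, edgeR adjusted p = 0.0225). In AGY1614 it went from 156, 161, 164 and 184 CPM to 333, 406, 721 and 684. PRP39 rose in AGY1612 alone, from 273, 304, 291 and 291 CPM to 587, 514, 446 and 472 (0.80 ± 0.16, n = 4 against 4, edgeR adjusted p = 0.000181, kept with summed cultures). PRP40, which links the ends of the intron, passed the test in no strain (-0.36 to 0.59). PRP42 rose in AGY1611 of batch 1 (3.29, edgeR adjusted p = 0.0269), from 0 to 4.64 CPM to between 2.37 and 70.1, with libraries that overlapped, and the call was lost with summed cultures.

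The U2 snRNP genes went in opposite directions. PRP9, PRP11 and PRP21 encode the SF3a subunits of U2, and CUS1 encodes a subunit of SF3b. PRP9 rose in the 4 strains of batch 1 (0.70 to 0.98) and in AGY1611 and AGY1859 of batch 2, and was above 0 in all 10 comparisons. With summed cultures it kept its call in AGY1612 alone. In AGY1611 of batch 1 it went from 292, 284, 282 and 306 CPM to 558, 547, 587 and 599, with the 4 libraries close together. PRP11 rose in AGY1611, AGY1613 and AGY1614 of batch 1 (0.46, 0.46 and 1.22), and kept the last of these calls with summed cultures.

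PRP21, of the same complex, fell in AGY1613 (-1.67 ± 0.30, n = 4 against 4, edgeR adjusted p = 5.36e-05) and AGY1614 (-1.43 ± 0.31, edgeR adjusted p = 0.000296), and with summed cultures only the call in AGY1614 was kept. In AGY1613 it went from 102, 102, 105 and 97.4 CPM to 40.2, 50.9, 21.3 and 14.9. In batch 2 its changes ran from -0.86 to 1.33 and none passed the test.

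The CUS1 (YMR240C) plasmid fell to 0 or 1 count per library in 3 strains of batch 2. At generation 0 of batch 2 it lay between 16.5 and 34.2 CPM, with a median of 24.1. In AGY1860, 95, 61 and 110 counts at the start became 0, 0 and 0 at generation 10. This is at least 10.5-fold lower, against a floor of 3 counts per library that covers counting error only (edgeR adjusted p = 0.000186). In AGY1859 the counts went from 46, 121 and 163 to 0, 1 and 0 (edgeR adjusted p = 0.000839), and in AGY1862 from 142, 95 and 155 to 1, 0 and 0 (edgeR adjusted p = 0.000968).

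These 3 calls of CUS1 were kept under each alternative and left-out library. The cultures of AGY1863 did not move together, with 56, 59 and 0 counts at generation 10 against 90, 65 and 121. In AGY1611 the cultures split. In batch 1, A and B went up to 91.8 and 79.1 CPM and C and D down to 2.28 and 6.25, from 25.4 to 31.9 at the start. In batch 2, replicate 2 went up to 86.1 CPM, while replicates 1 and 3 stood at 18.3 and 4.06. CUS1 fell in AGY1613 of batch 1, to 8.16, 6.13, 1.09 and 3.64 CPM (-2.67 ± 0.79, n = 4 against 4, edgeR adjusted p = 0.00781), a call lost with summed cultures (0.197).

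**Figure D4:**
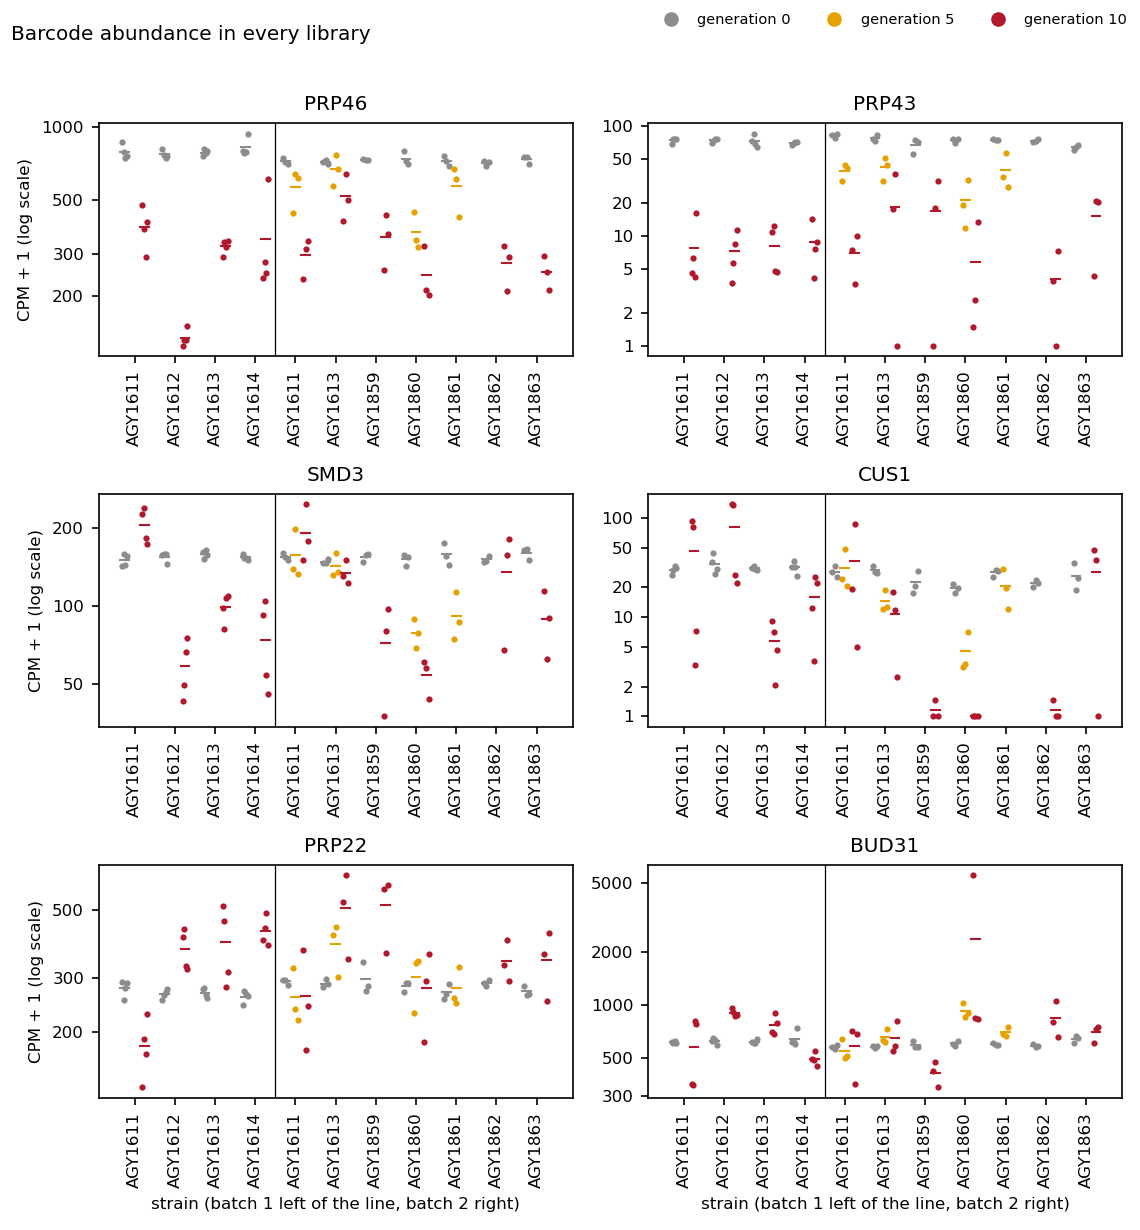
CPM plus 1 (log axis) of PRP46, PRP43, SMD3, CUS1, PRP22 and BUD31 in every library, by strain and generation, with a bar at the mean of each group. PRP46 and PRP43 lie lower at generation 10 than at generation 0 in each strain, CUS1 reaches 0 in AGY1860, and 1 library of AGY1860 holds 5520 CPM of BUD31.

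The 8 U4/U6 and tri-snRNP entries were called in 16 of 32 tests in batch 1 (against 46.2% of the tests over all entries), 13 higher and 3 lower. In batch 2 they were called in 7 of 48 (14.6%, against 16.9%), all higher. The tests called higher were 40.6% of theirs in batch 1 and 14.6% in batch 2, against 21.4% and 5.69% over all entries. PRP3 (YDR473C), whose protein binds the paired U4 and U6 snRNAs, rose in AGY1611, AGY1612 and AGY1614 of batch 1 and in AGY1611, AGY1859 and AGY1862 of batch 2, with log2 changes of 0.92 to 1.73. It was above 0 in all 10 comparisons and in 32 of 34 cultures.

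The rise of PRP3 was even in some strains and rested on particular cultures in others. In AGY1612 the 4 libraries stood at 336, 357, 312 and 328 CPM, from 166, 179, 180 and 181 (log2 change 0.92 ± 0.28, n = 4 against 4, edgeR adjusted p = 0.00899). In AGY1611 of batch 1, A and B reached 652 and 669 CPM but C and D only 199 and 218, from 168 to 182 at the start (1.31 ± 0.28, edgeR adjusted p = 0.000395). In AGY1611 of batch 2, replicate 2 reached 957 CPM while the others stood at 242 and 249, and without that library the call was lost (0.434). AGY1859, at 757, 827 and 260 CPM from 207, 178 and 170, kept its call without any 1 library (1.73 ± 0.38, n = 3 against 3, edgeR adjusted p = 0.000934) and lost it when fitted alone (0.0666). AGY1862 lost its call without the generation 10 library of replicate 2 (0.0847). The 3 batch 1 calls were lost with summed cultures (0.0505 to 0.176).

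PRP6 (YBR055C), a tri-snRNP protein that bridges U5 with U4/U6, rose in AGY1612, AGY1613 and AGY1614 of batch 1 and in AGY1613, AGY1859 and AGY1863 of batch 2. In AGY1614 its libraries went from 459, 460, 444 and 548 CPM to 1624, 2058, 994 and 989, all above the start and highest in A and B (1.57 ± 0.20, n = 4 against 4, edgeR adjusted p = 1.39e-07). That call was kept with summed cultures (0.00376). In AGY1613 of batch 2 it reached 790, 534 and 852 CPM from 403, 431 and 429 (0.78 ± 0.20, n = 3 against 3, edgeR adjusted p = 0.00637), and without the generation 10 library of replicate 3 the call was narrowly lost (0.0514). The calls in AGY1859 (0.71) and AGY1863 (0.56) were lost in 3 and 5 of 6 fits without a library, and that in AGY1613 of batch 1 (0.54) in 4 of 8.

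**Figure D5:**
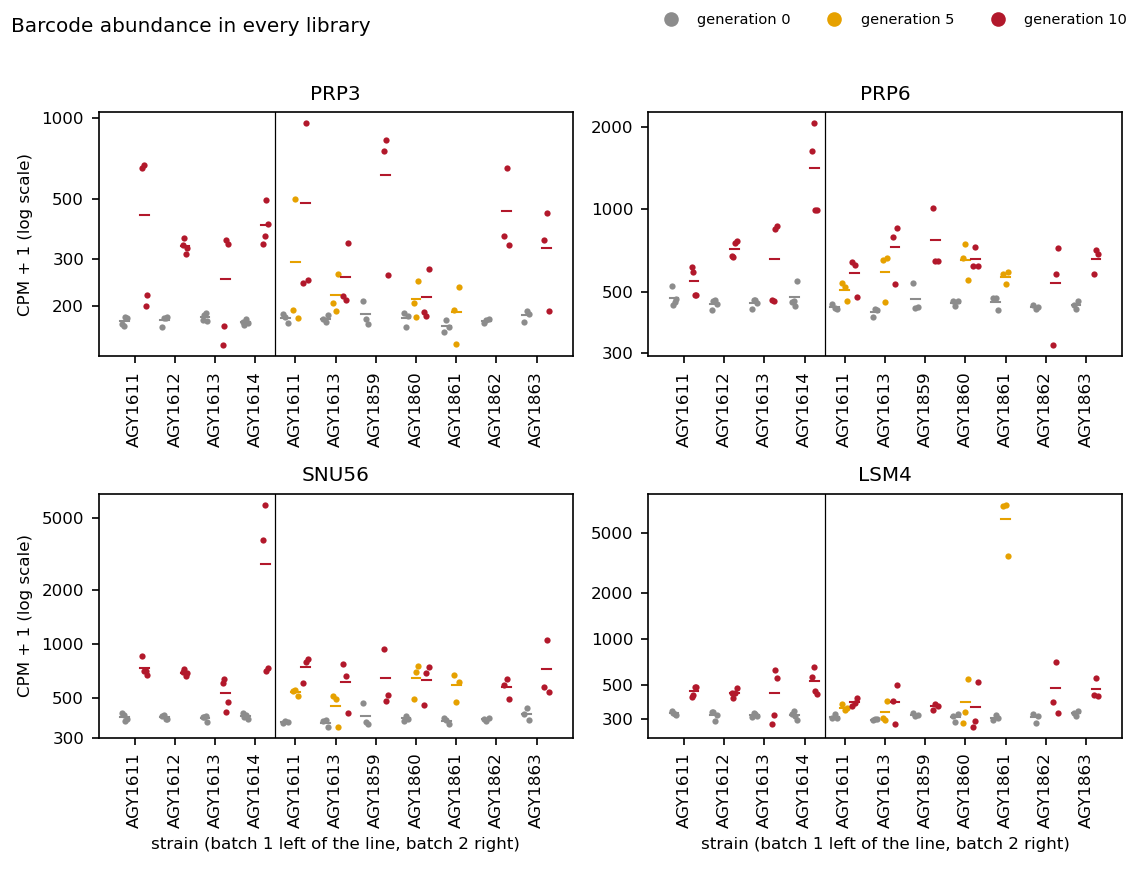
CPM plus 1 (log axis) of PRP3, PRP6, SNU56 and LSM4 in every library, by strain and generation, with a bar at the mean of each group. SNU56 reaches 3785 and 5923 CPM in 2 libraries of AGY1614, and LSM4 reaches 3533 to 7622 CPM in AGY1861 at generation 5.

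Other tri-snRNP genes moved in fewer strains. SNU13, which binds U4 snRNA and small nucleolar RNAs, rose in AGY1611 of batch 1 (0.81 ± 0.15, n = 4 against 4, edgeR adjusted p = 6.39e-05), from 231, 226, 238 and 234 CPM to 461, 478, 371 and 318, and kept the call with summed cultures. It also rose in AGY1614 (0.43, lost with summed cultures). SNU114, a GTPase of U5, rose in AGY1612 (0.82) and AGY1614 (0.74), and SNU23 in AGY1612 (0.96) and AGY1613 (0.79). PRP38 rose in AGY1611 of batch 1 (0.62) and AGY1862 (1.03), each time with libraries that overlapped the start. The batch 1 calls of SNU114, SNU23 and PRP38 were lost with summed cultures.

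SNU66 fell in AGY1611 of batch 1 and in no other comparison. Its barcode went from 49.3, 46.9, 46.1 and 51.7 CPM to 2.96, 3.36, 4.1 and 10.8 (-3.15 ± 0.46, n = 4 against 4, edgeR adjusted p = 2.91e-06), all 4 far below the start, and the call was kept with summed cultures. In batch 2 the same strain gave 128, 0 and 4.06 CPM from 46.9, 44.2 and 44, so replicate 1 went up while replicates 2 and 3 went down, and the fitted change was -0.05. LSM2, of both Lsm rings, and PRP24 started at low levels. LSM2 rose in AGY1611 of batch 1 (2.37) and fell in AGY1613 (-4.03), and its cultures of AGY1611 split, with A and B at 57.4 and 71 CPM and C and D at 0.455 and 1.74. PRP24, which pairs U4 with U6, fell in AGY1611 (-2.67) and AGY1614 (-2.73) of batch 1, but in AGY1613 its counts went from 92, 64, 69 and 112 to 0, 6, 195 and 267. The calls of LSM2 and PRP24 were lost with summed cultures.

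Among the proteins of the Prp19 complex and those tied to it, PRP46 fell while PRP19, PRP45 and BUD31 passed the test only as higher. PRP46 (YPL151C) encodes a WD-repeat protein of the complex that binds Prp45. Its barcode lay between 740 and 938 CPM at generation 0 of batch 1, with a median of 781. After 10 generations AGY1612 held 124, 131, 131 and 149 CPM (log2 change -2.52 ± 0.20, n = 4 against 4, edgeR adjusted p = 1.93e-11). AGY1611 held 474, 377, 289 and 404 CPM (-1.03 ± 0.19, edgeR adjusted p = 5.13e-05), AGY1613 held 290, 335, 319 and 338 (-1.29 ± 0.19, edgeR adjusted p = 2.85e-06), and AGY1614 held 238, 277, 248 and 608 (-1.28 ± 0.19, edgeR adjusted p = 1.87e-06). No generation 10 library overlapped the generation 0 libraries of its strain.

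PRP46 also fell in 5 of 6 strains of batch 2, by log2 values of 1.06 to 1.59. AGY1860 held 320, 211 and 201 CPM at generation 10 (-1.59 ± 0.21, n = 3 against 3, edgeR adjusted p = 5.33e-08) after 442, 340 and 318 at generation 5 (-1.01 ± 0.20, edgeR adjusted p = 0.000771), from 791, 720 and 701 at the start. The decline was thus already present at generation 5 and larger at generation 10. AGY1613, at 409, 638 and 500 CPM from 715, 729 and 703, had a change of -0.47 that did not pass the test, though all 3 libraries lay below the start. All 9 calls at generation 10 and the call at generation 5 were kept under each alternative, summed cultures included, and without each library in turn. PRP46 was lower in all 34 cultures.

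PRP45, the partner of PRP46, rose in AGY1613 (0.60) and AGY1614 (0.69) of batch 1 and in AGY1859 (1.26 ± 0.32, n = 3 against 3, edgeR adjusted p = 0.00496), where 1 of 3 libraries held 1407 CPM and the others 261 and 502. PRP19, the ubiquitin ligase that gives the complex its name, rose in AGY1612 (0.91) and AGY1614 (0.90) of batch 1. The batch 1 calls of PRP45 and PRP19 were lost with summed cultures. In AGY1614 it went from 171, 186, 194 and 221 CPM to 361, 355, 315 and 416.

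BUD31 (YCR063W), whose protein is a component of the spliceosome, rose in AGY1612 of batch 1 from 623, 643, 629 and 592 CPM to 958, 912, 861 and 877 (0.54 ± 0.18, n = 4 against 4, edgeR adjusted p = 0.0168), a call lost with summed cultures (0.239). In AGY1860 its generation 10 libraries held 5520, 846 and 828 CPM, from 597, 584 and 624. All 3 lay above the start, and replicate 1 stood far above the others (2.00 ± 0.34, n = 3 against 3, edgeR adjusted p = 1.55e-05). The call was lost without the generation 10 library of replicate 1 (edgeR adjusted p = 0.0901) and when the strain was fitted alone (0.117).

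Among the helicases and step factors, PRP43 (YGL120C) fell by a similar size in the 4 strains of batch 1. Prp43 releases the excised intron and takes the spent spliceosome apart, and it also acts in ribosome assembly. Its plasmid began between 64.4 and 84 CPM in batch 1, with a median of 71.6. At generation 10 AGY1611 held 3.55, 5.27, 3.19 and 15.3 CPM, AGY1612 2.68, 4.61, 7.47 and 10.3, AGY1613 9.79, 11.3, 3.83 and 3.64, and AGY1614 13.3, 3.15, 6.66 and 7.89. Every library lay far below the start of its strain, and the 4 log2 changes ran only from -3.51 to -3.28 (SE 0.46 to 0.50, n = 4 against 4, edgeR adjusted p from 3.06e-07 to 2.48e-06).

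In batch 2, PRP43 fell in AGY1611 (-3.77 ± 1.00, n = 3 against 3, edgeR adjusted p = 0.00572), AGY1860 (-4.10 ± 1.03, edgeR adjusted p = 0.00286) and AGY1862 (-4.41 ± 1.03, edgeR adjusted p = 0.00193), with 0 to 12.3 CPM left. In the other 3 strains it stood at 0 to 35.4 CPM and its fitted changes did not pass the test. All 34 cultures had less PRP43 at generation 10 than at the start. At generation 5 AGY1611 held 30.9, 43.2 and 40.9 CPM from 82.1, 77.2 and 85, and AGY1860 18.2, 10.8 and 31.6 from 75.7, 68.8 and 76.1, values between the start and generation 10 that did not pass the test. The batch 1 calls were kept under each alternative, and the calls in AGY1860 and AGY1862 were lost only when each strain was fitted alone (0.0511 and 0.0509).

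PRP18, a factor of the second catalytic step, fell in the 4 strains of batch 1 (-2.25 to -0.71) and in AGY1860 (-1.54 ± 0.49, n = 3 against 3, edgeR adjusted p = 0.0184). In AGY1612 it went from 130, 130, 133 and 121 CPM to 22.1, 22.7, 29.4 and 33.6 (-2.25 ± 0.29, n = 4 against 4, edgeR adjusted p = 1.9e-07). With summed cultures the call of PRP18 was lost in AGY1611 of batch 1. PRP16, the helicase of that step, fell in AGY1614 alone (-0.76, edgeR adjusted p = 0.0192, lost with summed cultures). PRP28, the helicase that exchanges U1 for U6, rose in AGY1611, AGY1612 and AGY1614 of batch 1 (0.60 to 1.61), a call kept in AGY1614 alone with summed cultures, and in AGY1611 and AGY1859 of batch 2 (0.70 and 0.76).

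PRP22 (YER013W), the helicase that releases the spliced mRNA, went down in AGY1611 and up elsewhere in batch 1. AGY1611 moved from 290, 253, 276 and 288 CPM to 130, 188, 168 and 227 (-0.63 ± 0.16, n = 4 against 4, edgeR adjusted p = 0.00187), with all 4 libraries below the start. AGY1612 rose to 407, 433, 327 and 320 CPM (0.49), AGY1613 to 515, 459, 279 and 313 (0.55), and AGY1614 to 399, 437, 491 and 384 (0.72), each above all of its generation 0 libraries. With summed cultures AGY1614 kept its call and the others lost theirs (0.16 to 0.187). With library size alone the calls in AGY1614 (edgeR adjusted p = 0.298) and AGY1613 (0.0641) were lost. In batch 2 PRP22 rose in AGY1613 (0.83) and AGY1859 (0.81), each lost in 4 of 6 fits without a library and with library size alone. AGY1611, at 370, 174 and 241 CPM from 295, 295 and 284, did not pass the test.

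The strain comparison asks whether a member's change over 10 generations differs between strains. In batch 1 the joint test over 4 strains called 25 of 39 members (48.1% of all entries), but with summed cultures it called only LSM7 entry 2 (edgeR adjusted p = 0.0126). Against AGY1611, 13 members differed in AGY1612 (8 lower, 5 higher, against 23.7% of all entries, 16.1% lower and 7.58% higher), 9 in AGY1613 (6 lower, 3 higher, against 20.0%, 10.3% lower and 9.62% higher) and 15 in AGY1614 (6 lower, 9 higher, against 30.0%, 17.1% lower and 12.8% higher). All 3 comparisons share the AGY1611 libraries. With library size alone the split was 4 lower and 6 higher in AGY1612 and 9 lower and 8 higher in AGY1614, and with DESeq2 size factors it was 4 and 6, and 4 and 11. With summed cultures they called 0, 0 and 1 member, the last again LSM7 entry 2. At 4 cultures, PRP22 was higher than in AGY1611 in all 3 strains by 1.12 to 1.35, and SMD3 lower by 1.14 to 1.86.

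SNU66 was higher than in AGY1611 in all 3 strains too, by 2.88 to 3.30. PRP46 fell more in AGY1612 than in AGY1611, by 1.49 on the log2 scale (edgeR adjusted p = 0.000165). These values come from the fit with 4 cultures, and none of these differences was called with summed cultures.

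In batch 2 the joint test over 6 strains called 4 of 38 members (6.22% of all entries): CUS1 (edgeR adjusted p = 0.000858), BUD31 (0.00697), SMD3 (0.0312) and PRP46 (0.047). CUS1 was lower than in AGY1611 in AGY1859 (1.73% of all entries were called there) and AGY1860 (0.349%), and BUD31 was higher in AGY1860. All 3 calls were lost with the replicate block, where CUS1 had an edgeR adjusted p of 0.0855 in AGY1859 and 0.113 in AGY1860, and BUD31 of 0.113. The edgeR test called 0 members in AGY1613 (0.371% of all entries), AGY1862 (0.24%) and AGY1863 (0.393%) against AGY1611, where 4, 3 and 3 had an unadjusted p under 0.05 and DESeq2 called 0, 1 and 0. The PRP46 call of the joint test was lost in 23 of 36 fits without a library (adjusted p up to 0.146) and SMD3's in 10 (up to 0.0604), while BUD31's was lost without the high library of AGY1860 (0.0522) and CUS1's was kept in all 36.

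Generation 5 was sampled in 4 strains of batch 2. The edgeR test called 0 members in AGY1611 and in AGY1613, where 0.0% of all entries were called, 2 of 38 members had an unadjusted p under 0.05 in each, and DESeq2 also called 0. In AGY1860 it called 2, against 7.32% of all entries (4.78% lower, 2.53% higher), SNU56 and PRP46 as above, and 4 with the replicate block. In AGY1861 it called 1, LSM4, against 2.58% of all entries (0.0218% lower, 2.56% higher). The comparisons at generations 5 and 10 share their generation 0 libraries.

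AGY1611 and AGY1613 were grown in both batches. In AGY1611 the fitted change had the same sign in both batches for 36 of 38 members, and all 7 members called in batch 2 had the same call in batch 1. Over all entries tested in both batches the sign was shared by 90.4%, and 94.3% of the batch 2 calls had the same call in batch 1. In AGY1613 the sign was shared by 35 of 38, and 2 of 3 batch 2 calls had the same call in batch 1, against 89.3% and 96.9% over all entries. SNU66 of AGY1611 fell by 3.15 in batch 1 and had a change of -0.05 in batch 2. PRP46 in AGY1613 was called in batch 1 (-1.29) and not in batch 2 (-0.47).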

How the data were processed

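Plasmids were recovered from each pool and their barcodes amplified over 20 PCR cycles, per the labels' protocols. The authors deposited raw barcode counts for each gene entry, a table for either batch. The matching of reads to barcodes is not given in the sources used here. The reads carry no molecular identifiers that the labels mention, so floors and the stated depth cover counting error only.

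The empty vector was left out of library sizes and tests. edgeR 4.0.16 (R 4.3.3) fitted quasi-likelihood models to the deposited counts of all libraries of a batch, with TMM scaling, filterByExpr at a minimum count of 10 and 1 coefficient per strain and generation. Changes from generation 0 and their differences from AGY1611 were tested, and p-values were adjusted (Benjamini-Hochberg) over all entries. CPM uses the TMM-scaled totals, and the log2 change of a single culture adds 1 CPM. Alternatives were DESeq2 1.42.0, its size factors within edgeR, library size alone, other filters on low counts, a replicate block, the libraries of the comparison alone, summed cultures, and each library left out.

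The members and the gene lists were chosen with earlier results of these data known. Entries described by rule were those called in one direction in at least 3 strains of each batch, the 3 with the lowest joint p per batch, and those called at generation 5, each averaging 50 or more counts at generation 0. This gave 11 entries: BUD31, CUS1, LSM4, LSM7 entry 2, PRP3, PRP6, PRP22, PRP43, PRP46, SMD3 and SNU56. Other members given library by library were chosen after their values were seen.

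No pair of replicates held identical counts, and the lowest chi-square per degree of freedom between replicates was 2.26. Replicates are separate cultures, but the 4 cultures of a batch 1 strain came from 2 transformations, so they are not 4 separate transformations. Their p-values rest on a spread between cultures that was estimated from all libraries of the batch. They do not measure the spread between transformations. Same-numbered libraries deviated together (every correlation over 0.1) in AGY1859, AGY1860 and AGY1863 of batch 2, with correlations of 0.173 to 0.536, and the numbers were taken as pairs there. The main fit, which gave the calls, did not use these pairs. They entered only through the replicate block among the alternatives. On simulated counts for AGY1612 of batch 1, over 4610 entries, the fit called 88% and 94% of entries with true log2 changes of -2 and 2, 50% and 54% of those with -1 and 1, and 0.136% of unchanged ones. For AGY1860 of batch 2, over 4568 entries, these were 66%, 76%, 32%, 48% and 0.0916%. The simulated libraries were drawn independently, with 50 entries at each true change other than 0. The batch 1 cultures instead fell into pairs, and 43.1% of all entries were called in AGY1612. These rates therefore do not give the error rate of the batch 1 calls.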

Additional observations from a re-analysis of the deposited data

Results flagged for a closer look

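The values of edgeR's joint test of a difference between strains are given here as a description, because 5 of the entries (BUD31, CUS1, LSM7 entry 2, PRP22 and SMD3) were chosen for a low joint p. The test called 48.1% of all entries in batch 1 and 6.22% in batch 2. In batch 1, LSM7 entry 2 had an adjusted p of 1.05e-08, SMD3 of 3.48e-05, PRP22 of 7.13e-05 and PRP46 of 0.000172. The adjusted p was 0.00125 for PRP6, 0.00184 for SNU56, 0.0125 for CUS1 and 0.0162 for BUD31. Of these 8, only LSM7 entry 2 was still called with summed cultures (A with B, C with D) (edgeR adjusted p = 0.0126), and the others had adjusted p of 0.0616 (PRP46) to 0.504 (BUD31). In batch 2, the joint test gave edgeR adjusted p of 0.000858 for CUS1, 0.00697 for BUD31, 0.0312 for SMD3 and 0.047 for PRP46. PRP46 fell in every batch 1 strain, so its difference is one of size, whereas LSM7 entry 2 and PRP22 rose in some strains and fell in others.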

How the results depend on the processing

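Of the counts of called members, 360 alternative values stayed within 1.5 times the main count and 84 did not. Among single members, 3056 alternative values kept direction and side of the threshold, 165 lost the call, 52 gained one, 50 values moved and 1 reversed, LSM7 entry 1 in AGY1614 with library size alone (-0.091). The cause was not tested. Leaving out each library in turn gave 17 to 21 calls at generation 10 in AGY1611 of batch 1, 17 to 19 in AGY1612, 13 to 15 in AGY1613 and 22 to 26 in AGY1614, and 21 to 28 in the joint test. Against AGY1611 it gave 8 to 13 in AGY1612 (8 without its generation 10 library A, 13 with all), 7 to 11 in AGY1613 and 13 to 18 in AGY1614. In batch 2 it gave 4 to 11 in AGY1611, 1 to 4 in AGY1613, 5 to 11 in AGY1859, 6 to 8 in AGY1860, 3 to 11 in AGY1862 and 1 to 5 in AGY1863. At generation 5 it gave 0 in AGY1611 and AGY1613, 1 to 2 in AGY1860 and 1 in AGY1861. The joint test gave 2 to 7, and the differences from AGY1611 0 to 2 in AGY1613, 0 to 4 in AGY1859, 0 to 4 in AGY1860, 0 to 2 in AGY1862 and 0 to 1 in AGY1863.

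Single libraries moved the batch 2 counts by over 1.5 times. Without its generation 10 replicate 1, AGY1611 went from 7 to 11 and the joint test from 4 to 7, and the differences of AGY1613, AGY1859, AGY1860, AGY1862 and AGY1863 from AGY1611 went to 2, 4, 4, 2 and 1. AGY1611 came to 4 without its replicate 2. AGY1613 came to 1 without any generation 0 library, and AGY1863 to 2 without any generation 0 library and to 1 without generation 10 replicate 2. AGY1859 came to 6, 5 and 6 without generation 0 replicates 2 and 3 and generation 10 replicate 1. AGY1862 came to 11, 3 and 8 without generation 10 replicates 1, 2 and 3. At generation 5, AGY1860 came to 1 without any generation 0 library or generation 5 replicate 2 or 3. The joint test came to 2 without any generation 0 library of AGY1611, AGY1613 generation 0 replicate 1, AGY1859 generation 0 replicate 2 or 3, AGY1860 generation 0 replicate 1 or 3, or AGY1860 generation 10 replicate 3. The AGY1859 difference from AGY1611 (1) came to 0 without any generation 0 library or generation 10 replicate 2 of AGY1611 or generation 0 replicate 3 of AGY1859, and to 2 without its generation 10 replicate 2. The AGY1860 difference (2) came to 0 without the same 4 libraries of AGY1611 or its own generation 10 replicate 1, and to 1 without any of its generation 0 libraries or generation 10 replicate 2. The AGY1862 difference (0) came to 1 without AGY1611 generation 10 replicate 3.

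Summed cultures, which leave 2 values per group, gave 4, 7, 3 and 14 calls in AGY1611 to AGY1614 in place of 22, 19, 16 and 27, 0, 0 and 1 in place of 13, 9 and 15 against AGY1611, and 1 in place of 25 in the joint test. The replicate block gave 11 in place of 7 at generation 10 and 4 in place of 2 at generation 5 in AGY1860, where the numbers pair the samples, and 2 in place of 1 in AGY1861. It gave 8 in place of 13 and 5 in place of 9 for AGY1612 and AGY1613 against AGY1611 in batch 1, 14 in place of 25 in the joint test of batch 1, and 0 in place of 1 and 2 for AGY1859 and AGY1860 against AGY1611. In the other strains not every correlation between same-numbered libraries was over 0.1, so that measure did not establish the pairs there. Empty-vector counts did follow the number in AGY1611 and AGY1613 of batch 2. At generations 0, 5 and 10 replicate 2 held 1214, 600 and 286 in AGY1611, and the others 0 to 56. In AGY1613 it held 2033, 669 and 333, and the others 0 to 104. DESeq2 gave 5 in place of 3 in AGY1613 and 8 in place of 5 in AGY1862, and 2 in place of 1 and 1 in place of 0 for AGY1859 and AGY1862 against AGY1611. With the libraries of the comparison alone, generation 10 gave 2 in place of 10 in AGY1859, 3 in place of 5 in AGY1862 and 2 in place of 4 in AGY1863. Generation 5 then gave 3, 1, 5 and 5 in AGY1611, AGY1613, AGY1860 and AGY1861, AGY1859 and AGY1860 against AGY1611 gave 0, and the joint test of batch 2 gave 1. Library size alone gave 5 in place of 10 in AGY1859, and 18 (17 lower) in place of 1 at generation 5 in AGY1861, where it moved the median of all entries by -0.89. The causes were not tested. Low counts limit PRP11 and SMD2 in batch 2 and LSM2, PRP24 and PRP42 in both.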
